A study of Mus musculus with 4 samples.

Results

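The 10 genes described here are the 4 Notch receptors, the ligands Dll1, Dll4, Jag1 and Jag2 and the target genes Hey1 and Hes1. They were taken by gene symbol from a DNA microarray data set of the host reaction to implanted scaffolds. No cut was set on their values, but earlier results of these data were known when they were chosen. Of the 10 genes, 9 had a value on all 4 arrays, as 11842 of 19087 named genes did, and Dll4 had a value on 3 arrays. The arrays compared tissue at collagen-coated and PMB-coated porous scaffolds with tissue at non-coated scaffolds. The scaffolds were polyethylene discs, called polystyrene in the series title, that were left subcutaneously on the back of C57BL/6 males aged 8 weeks for 7 days. PMB is a bio-inert phosphorylcholine polymer, and its samples are titled MPC after one of its monomers. Genotype, sex, age and implantation time were the same for all 3 kinds of scaffold. RNA came from tissue within a thin margin of the scaffold, cut out by laser, so each extract held RNA of mixed host cells. 1 mouse was used for each kind of scaffold, and whether the 3 kinds were in separate mice is not stated in the methods. For each coating, 825 ng of labelled RNA was hybridized against an equal amount of non-coated scaffold RNA on 2 arrays. The coated sample carried Cy5 on replicate 1 and Cy3 on replicate 2, and 1 extract from the non-coated scaffold served both coatings.

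Notch receptors are single-pass membrane proteins that are activated by Delta-like and Jagged ligands on a neighbouring cell. Ligand binding leads to cleavage of the receptor, and the freed intracellular domain enters the nucleus and joins the DNA-binding protein Rbpj to switch on genes such as Hes1 and Hey1. In growing blood vessels, Dll4 on leading endothelial cells restrains sprouting of their neighbours, while Jag1 and Notch3 act between endothelium and the mural cells around it. Notch signalling also takes part in macrophage activation, in T cell development and in muscle regeneration.

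Every value below is a log2 ratio, of coated over non-coated unless stated, so that 1 is a 2-fold difference. The ± is the SD of the 2 dye orientations, which are 1 hybridized pair of extracts with the dyes exchanged. It covers the error of dye and array but not the spread over mice. Since each scaffold gave 1 extract, no test was possible, and a gene was called if its mean reached 2-fold and both arrays had the same sign. The number of arrays limits the precision, and spot intensities were not used here, so levels of different genes cannot be compared. Between 52.3% and 60.5% of the 43377 entries had a value on an array, and the median SD over all genes was 0.13 with collagen and 0.14 with PMB. The 10 genes had 32 entries, of which 29 had 4 values, 2 had some and 1 had none.

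Of the receptors, Notch3 and Notch4 stood above 0 on all 4 arrays, and Notch1 and Notch2 lay near 0. Notch3, the receptor of vascular smooth muscle cells and pericytes, was at 0.36 and 0.85 on the 2 collagen arrays and at 0.63 and 0.94 on the 2 PMB arrays. The means were 0.61 ± 0.35 with collagen (1.52-fold) and 0.78 ± 0.22 with PMB (1.72-fold). Replicate 2 gave the larger value with both coatings. In size, the PMB ratio of Notch3 exceeded that of 96.1% of the genes. Notch4, which is largely restricted to endothelium, was at 0.68 and 0.88 on the collagen arrays and at 0.30 and 0.70 on the PMB arrays. Its mean was 0.78 ± 0.14 with collagen (1.72-fold) and 0.50 ± 0.28 with PMB (1.41-fold). Neither receptor reached 2-fold on any array. In tissue of mixed cells, more cells of a type and more RNA per cell cannot be told apart in such ratios.

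Notch1, the receptor with the broadest role in endothelium and T cells, changed sign with the dye orientation. Its 11 entries averaged 0.036 and -0.26 on the 2 collagen arrays and 0.20 and -0.20 on the 2 PMB arrays, with means of -0.11 ± 0.21 and 0.0021 ± 0.28. Notch2, a receptor of many tissues including myeloid cells, averaged -0.11 and 0.0475 with collagen and 0.094 and 0.30 with PMB, with means of -0.031 ± 0.11 and 0.20 ± 0.15. The 2 measured entries of Notch2 had means of -0.18 and 0.12 for collagen and of -0.12 and 0.51 for PMB, so they disagreed in sign for both coatings. A single direction cannot be given for Notch1 or Notch2 from these arrays.

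**Figure D1:**
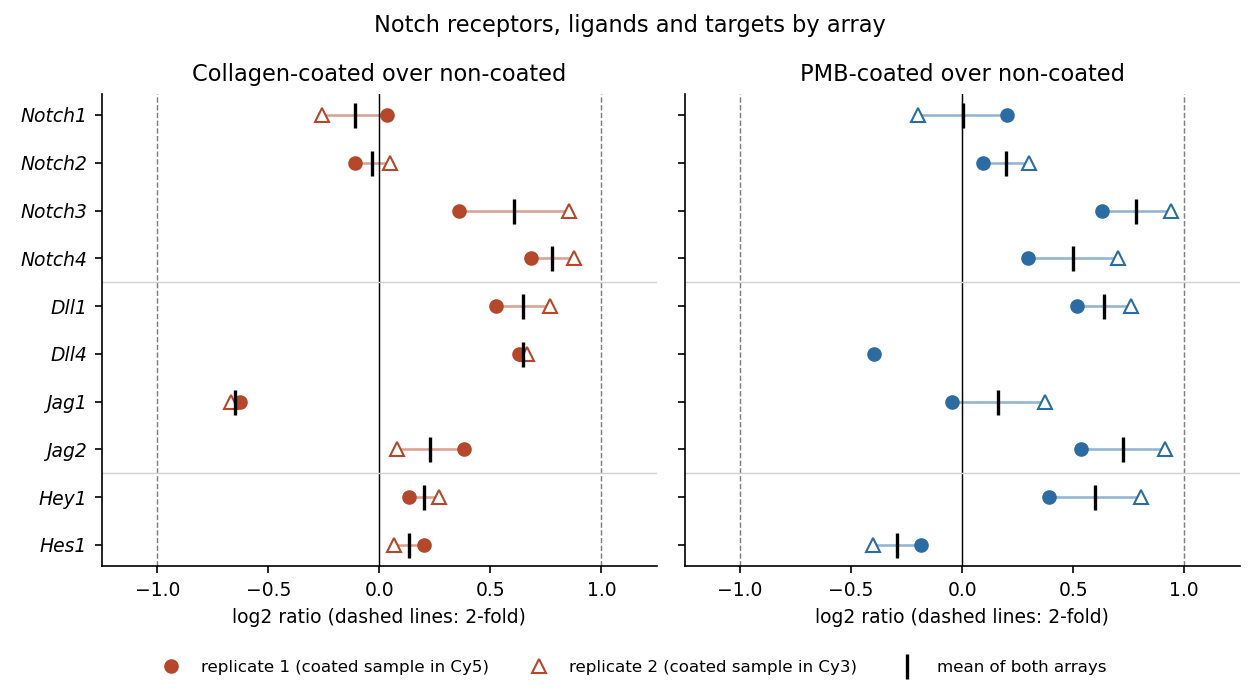
Log2 ratio of each Notch gene (rows) on each array, collagen-coated over non-coated (left panel) and PMB-coated over non-coated (right panel); circles are replicate 1, triangles replicate 2 and black bars their mean, with dashed lines at 2-fold. Notch3, Notch4, Dll1, Jag2 and Hey1 lay above 0 on all 4 arrays, Jag1 lay at -0.63 and -0.67 with collagen, Dll4 had no value on PMB replicate 2, and no point reached 2-fold.

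Sequences from RefSeq (build GRCm38.p6) around the start sites are shown for Notch3, Notch4 and Dll1, which were at least 1.41-fold higher with both coatings, 250 bases before to 50 bases after each start. 2 motifs were searched on both strands, TGGGAA, the core bound by Rbpj, and CACGNG, a form bound by Hes and Hey repressors. Capitals mark CACGNG or its reverse complement. For Dll1 the table gives 2 start sites, and all 4 windows lie on chromosome 17.
Notch3 (chr17:32166841-32167140, minus strand): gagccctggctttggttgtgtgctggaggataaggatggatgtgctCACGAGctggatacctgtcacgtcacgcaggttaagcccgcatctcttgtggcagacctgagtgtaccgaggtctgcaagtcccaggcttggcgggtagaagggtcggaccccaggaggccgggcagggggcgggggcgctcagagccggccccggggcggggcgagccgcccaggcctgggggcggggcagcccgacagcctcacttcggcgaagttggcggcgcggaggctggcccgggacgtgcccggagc
Notch4 (chr17:34564045-34564344, plus strand): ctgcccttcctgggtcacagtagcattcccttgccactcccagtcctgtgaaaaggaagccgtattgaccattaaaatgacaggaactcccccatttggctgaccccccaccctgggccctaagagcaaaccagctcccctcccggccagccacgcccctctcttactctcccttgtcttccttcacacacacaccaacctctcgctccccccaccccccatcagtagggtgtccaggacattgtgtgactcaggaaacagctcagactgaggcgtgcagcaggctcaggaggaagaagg
Dll1, first start (chr17:15376883-15377182, minus strand): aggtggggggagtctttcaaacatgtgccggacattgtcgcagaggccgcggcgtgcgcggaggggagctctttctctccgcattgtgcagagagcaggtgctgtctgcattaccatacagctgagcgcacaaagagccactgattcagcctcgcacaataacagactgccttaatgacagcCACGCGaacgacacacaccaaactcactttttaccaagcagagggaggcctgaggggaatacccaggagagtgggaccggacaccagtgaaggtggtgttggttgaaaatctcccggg
Dll1, second start (chr17:15375774-15376073, minus strand): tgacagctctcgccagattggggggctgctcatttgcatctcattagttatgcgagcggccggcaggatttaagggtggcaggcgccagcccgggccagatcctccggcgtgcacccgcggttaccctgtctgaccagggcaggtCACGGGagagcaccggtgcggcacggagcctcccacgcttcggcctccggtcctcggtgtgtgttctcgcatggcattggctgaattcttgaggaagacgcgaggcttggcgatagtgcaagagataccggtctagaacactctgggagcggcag
The window of Notch3 held CACGAG at position -204 from the start, and that of Notch4 held neither motif. The windows of Dll1 held CACGCG at -68 from the first start and CACGGG at -105 from the second. Windows were given for 8 of the 10 genes, the receptors and ligands, and not for the targets Hey1 and Hes1. TGGGAA was in 0 of these 9 windows, against 25.6% of 32851 windows of all genes. The 2 target genes were thus not searched for either motif. CACGNG was in 7 of the 9, against 27.5% of all windows. All 9 windows had a GC content, from 55.7% to 86%, above the median of 52.7% over all windows, and the motif itself is rich in G and C, so these shares are not matched for base composition. These are matches of letters and not measured sites of binding.

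Among the ligands, Dll1 was above 0 with both coatings, Jag2 mainly with PMB, and Jag1 was below 0 with collagen. Dll1, a ligand that supports marginal zone B cells, arterial growth and muscle progenitors, was at 0.52 and 0.77 on the collagen arrays and at 0.52 and 0.76 on the PMB arrays. The means, 0.65 ± 0.17 and 0.64 ± 0.17, were 1.56-fold for both coatings. All 10 entries of Dll1 were above 0 on all 4 arrays, with entry means between 0.54 and 0.77 with collagen and between 0.33 and 1.01 with PMB.
Jag1, a ligand of endothelium and smooth muscle, was at -0.63 and -0.67 on the collagen arrays and at -0.047 and 0.37 on the PMB arrays. Its means were -0.65 ± 0.028 (1.57-fold lower) and 0.16 ± 0.30, and it was the only one of the 9 genes below 0 on both collagen arrays. These values rest on 1 entry. A second entry of Jag1, with a value on replicate 1 only, stood at -0.091 with collagen and -0.63 with PMB, so the 2 entries differed by more than the SD of the dye orientations and in their order between the coatings.
Jag2, a ligand best known from limb and T cell development, was at 0.38 and 0.080 on the collagen arrays and at 0.53 and 0.91 on the PMB arrays, with means of 0.23 ± 0.21 and 0.72 ± 0.27 (1.65-fold). In size its PMB ratio exceeded that of 95.0% of the genes. Dll4, the sprouting ligand of endothelium, was at 0.63 and 0.66 with collagen, a mean of 0.645 ± 0.025. Its single value with PMB was -0.395 on replicate 1, and with no value in the other dye orientation no PMB mean was formed.

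The 2 target genes, both basic helix-loop-helix repressors, lay on opposite sides of 0 with PMB. Hey1, which acts in arterial endothelium and in mural cells, was at 0.135 and 0.27 on the collagen arrays and at 0.39 and 0.805 on the PMB arrays, with means of 0.20 ± 0.094 and 0.60 ± 0.29 (1.51-fold). Hes1, which many cell types use and which other signals also induce, was at 0.20 and 0.067 on the collagen arrays and at -0.19 and -0.40 on the PMB arrays, with means of 0.13 ± 0.093 and -0.29 ± 0.15. With collagen both targets were above 0 on both arrays. With PMB, Hey1 was above 0 and Hes1 below 0 on both arrays.

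None of the 9 measured Notch genes reached 2-fold with collagen, where 5.59% of all genes did, none with PMB, where 2.02% did, and none between the coatings, where 6.42% did. At 1.5-fold, Notch3, Notch4 and Dll1 were higher and Jag1 lower with collagen, which makes 4 of 9 against 14% of all genes (6.4% higher and 7.6% lower). Without replicate 2 only Notch4 and Jag1 were past 1.5-fold with collagen, 2 of 9 against 14.1%, and Notch3 also dropped out with array medians set to 0, with arrays scaled to one spread and with the trend in entry number removed, 3 of 9 each. With PMB, Notch3, Dll1, Jag2 and Hey1 were higher, 4 of 9, and none was lower, against 8.81% of all genes (4.32% higher and 4.48% lower). This count rested on replicate 2: without it Notch3 alone was past 1.5-fold, 1 of 9 against 7.95%, and without replicate 1 there were 5 of 9 against 15.8%. Hey1 dropped out with array medians set to 0 and with arrays scaled, and with the trend removed only Notch3 and Jag2 were left, 2 of 9 against 7.84%. Between the coatings Jag1 alone of the 9 was past 1.5-fold, lower with collagen, against 19.6% of all genes (9.35% higher and 10.2% lower). Without replicate 2 it was not, at -0.581. This count used the Jag1 entry with 4 values, and the other Jag1 entry had the opposite sign, at 0.54 on replicate 1. The median of the 9 genes was 0.20 with collagen and 0.50 with PMB, beside medians of 0.036 and 0.022 over all genes. On single arrays it was 0.199 on replicate 1 and 0.08 on replicate 2 with collagen, and 0.30 and 0.70 with PMB. With PMB 6 of 9 genes were above 0 on both arrays, against 38.8% of all genes, and 1 was below, against 33.6%. With collagen 6 of 9 were above 0 on both arrays too, against 39.9%, and 1 was below, against 32%. Notch3, Notch4, Dll1, Jag2 and Hey1 were above 0 on all 4 arrays, 5 of 9 against 17%. Both ratios share the extract from the non-coated scaffold, so values above 0 with both coatings are not independent of each other.

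Dll1 and Notch1 were represented by repeat entries spread over the deposited data, and their PMB ratios were larger at higher entry numbers. The 5 Dll1 entries of lowest number, 3032 to 27918, averaged 0.49 with PMB, and the 5 of highest number, 28854 to 44640, averaged 0.78. With collagen the same entries averaged 0.65 and 0.64. Of the 10 Notch1 entries that share an accession, the 5 of lowest number averaged -0.14 with PMB and the 5 of highest number 0.13, against -0.12 and -0.10 with collagen. The sign of Notch1 with PMB thus depended on which entries were read. The same held across the arrays: over the 22380 entries with 4 values, the median PMB ratio was -0.11 over the 2238 entries of lowest number and 0.19 over the 2238 of highest number, and the median collagen ratio 0.051 and -0.019. Among 133 sets of at least 8 repeat entries, the rank correlation of the PMB ratio with entry number was above 0 in 130 sets, with a median of 0.59. With collagen it was below 0 in 111 sets, with a median of -0.44, and on collagen replicate 2 alone in 129 sets. No source used here says what the entry number stands for on the array. The single entry of Notch3 had number 10662 and that of Notch4 38171. After subtraction of a running median over neighbouring entries, a step added after these values were seen, PMB means were 0.82 ± 0.21 for Notch3, 0.36 ± 0.22 for Notch4, 0.58 ± 0.14 for Dll1, 0.71 ± 0.24 for Jag2 and 0.57 ± 0.28 for Hey1. Notch1 was at -0.075 ± 0.32 and Notch2 at 0.09 ± 0.11, and Hes1 at -0.30 ± 0.17.

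**Figure D2:**
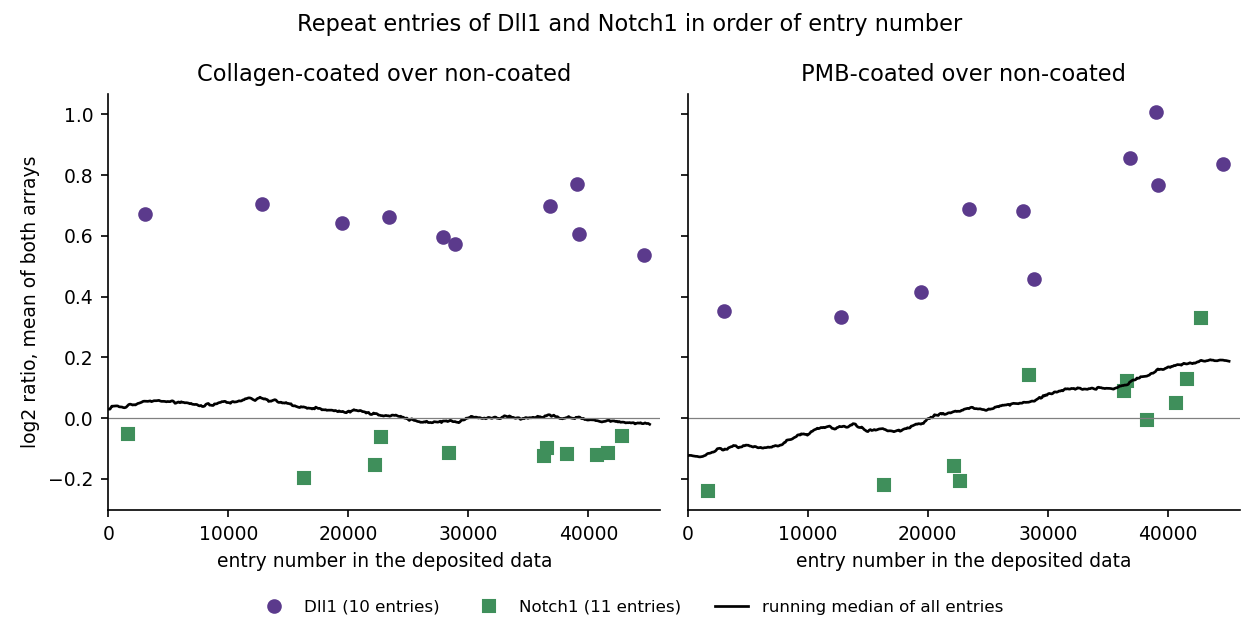
Log2 ratio (mean of both arrays) of every entry of Dll1 (circles) and Notch1 (squares) with 4 values against its entry number, with the running median of all entries as a line; collagen-coated over non-coated on the left and PMB-coated over non-coated on the right. With PMB the Dll1 entries ran from 0.33 to 1.01 and were larger at higher entry numbers, and with collagen they ran from 0.54 to 0.77.

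Set directly against each other, the collagen-coated scaffold had more Hes1 and less Hey1 signal than the PMB-coated scaffold in both dye orientations, Dll1 differed by less than the spread of its entries, and the 2 entries of Jag1 disagreed in direction. The collagen-to-PMB ratio was formed within each dye orientation, in which the non-coated extract drops out. For the Jag1 entry with 4 values it was -0.58 on replicate 1 and -1.04 on replicate 2, a mean of -0.81 ± 0.32. For the other Jag1 entry it was 0.54 on replicate 1, the only orientation with values, so no direction can be given for Jag1 between the coatings. Jag2 and Hey1 were also lower with collagen than with PMB, at -0.49 ± 0.48 and -0.40 ± 0.20. Hes1 was at 0.385 and 0.467, a mean of 0.43 ± 0.058, and Notch4 at 0.28 ± 0.15. The remaining receptors were between -0.23 and -0.11. Dll1 was at 0.0072 ± 0.003. The median of the 9 genes was -0.18, beside 0.0012 over all genes, with 3 genes above 0 in both dye orientations, against 42% of all genes, and 6 below, against 40.8%.

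Of 52 further genes of the pathway, 36 had values on all 4 arrays, and 3 of these passed 2-fold in at least one comparison. These genes were listed by role with no cut on their values, though with earlier results of these data known. With collagen 1 of 36 was at least 2-fold lower and none higher, where 3.38% and 2.21% of all genes were, and with PMB none was in either direction, where 0.616% of all genes were higher and 1.4% lower. The one was Dlk1, a non-canonical Delta-like protein of preadipocytes and developing muscle, at -2.22 and -2.43 on the collagen arrays and at -0.77 and -0.68 on the PMB arrays. Its means were -2.33 ± 0.15 (5.01-fold lower) and -0.72 ± 0.064. In the same extracts, 9 of 9 skeletal muscle genes were at least 2-fold lower with both coatings, with medians of -3.15 and -1.91. The 6 adipocyte genes had medians of -0.60 with collagen and 1.24 with PMB. The part of either tissue in the Dlk1 ratio was not tested.
Between the coatings, 3 of the 36 passed 2-fold, Dlk1 at -1.60 ± 0.21, Rbpj at -1.26 ± 0.067 and Maml2 at 1.01 ± 0.51, which is 1 higher and 2 lower with collagen, against 2.74% and 3.67% of all genes. Rbpj, the DNA-binding partner of the cleaved receptor, was at -0.69 and -0.80 on the collagen arrays and at 0.61 and 0.41 on the PMB arrays, so the 2 coatings lay on opposite sides of the non-coated scaffold. Maml2, a coactivator of the Notch-Rbpj complex, was at 0.067 and 0.36 on the collagen arrays and at -0.58 and -1.01 on the PMB arrays. Its collagen-to-PMB ratio was 0.65 on replicate 1 and 1.38 on replicate 2, so that 1 array decided the call. Each of these 2 genes had 1 entry with 4 values.

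Other genes were listed as targets, and whether each responds to Notch was not tested here. Nrarp, a feedback inhibitor that binds the activated receptor, had the largest value of the 5 measured. It was at 0.94 and 1.04 on the collagen arrays and at 0.25 and 0.60 on the PMB arrays. Its means of 0.99 ± 0.072 and 0.43 ± 0.25 lay just inside and well inside 2-fold. Hes6 and Bhlhe40, a related repressor that many signals induce, had means of 0.17 ± 0.40 and -0.42 ± 0.31 for collagen and of -0.16 ± 0.21 and 0.015 ± 0.040 for PMB. Of the proteases that process the receptor, Furin, which cuts it on its way to the surface, averaged 0.12 ± 0.0092 with collagen and 0.79 ± 0.10 with PMB. The gamma-secretase subunits Psenen and Aph1a had means of 0.15 ± 0.26 and 0.48 ± 0.072 for collagen and of -0.41 ± 0.052 and 0.050 ± 0.0074 for PMB. Fringe enzymes put sugars on the receptor that set which ligand it favours. The fringe gene Mfng was at 0.36 and 1.13 with collagen, a mean of 0.745 ± 0.55, and at 0.26 ± 0.34 with PMB, while Lfng was at 0.46 ± 0.091 and 0.21 ± 0.13. Pofut1, which adds the fucose that fringe enzymes extend, was at 0.10 ± 0.17 and -0.037 ± 0.19. Neurl1a, a ubiquitin ligase that acts on ligands, averaged -0.61 ± 0.18 with collagen and -0.30 ± 0.0085 with PMB. Mib2 and Itch, ubiquitin ligases of ligands and of the receptor, had means of -0.13 ± 0.43 and -0.11 ± 0.0049 for collagen and of 0.325 ± 0.30 and 0.29 ± 0.057 for PMB. In the nuclear complex, Snw1, a splicing factor that also binds the Notch complex, averaged -0.067 ± 0.019 with collagen and -0.76 ± 0.10 with PMB. Kat2b, an acetyltransferase of the activating complex, was at -0.27 ± 0.082 and 0.24 ± 0.019, and Spen, a corepressor partner of Rbpj, at 0.34 ± 0.045 and 0.27 ± 0.099. Over the 36 genes the median was 0.082 with collagen, from -0.022 on replicate 1 and 0.16 on replicate 2, and 0.12 with PMB.

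**Figure D3:**
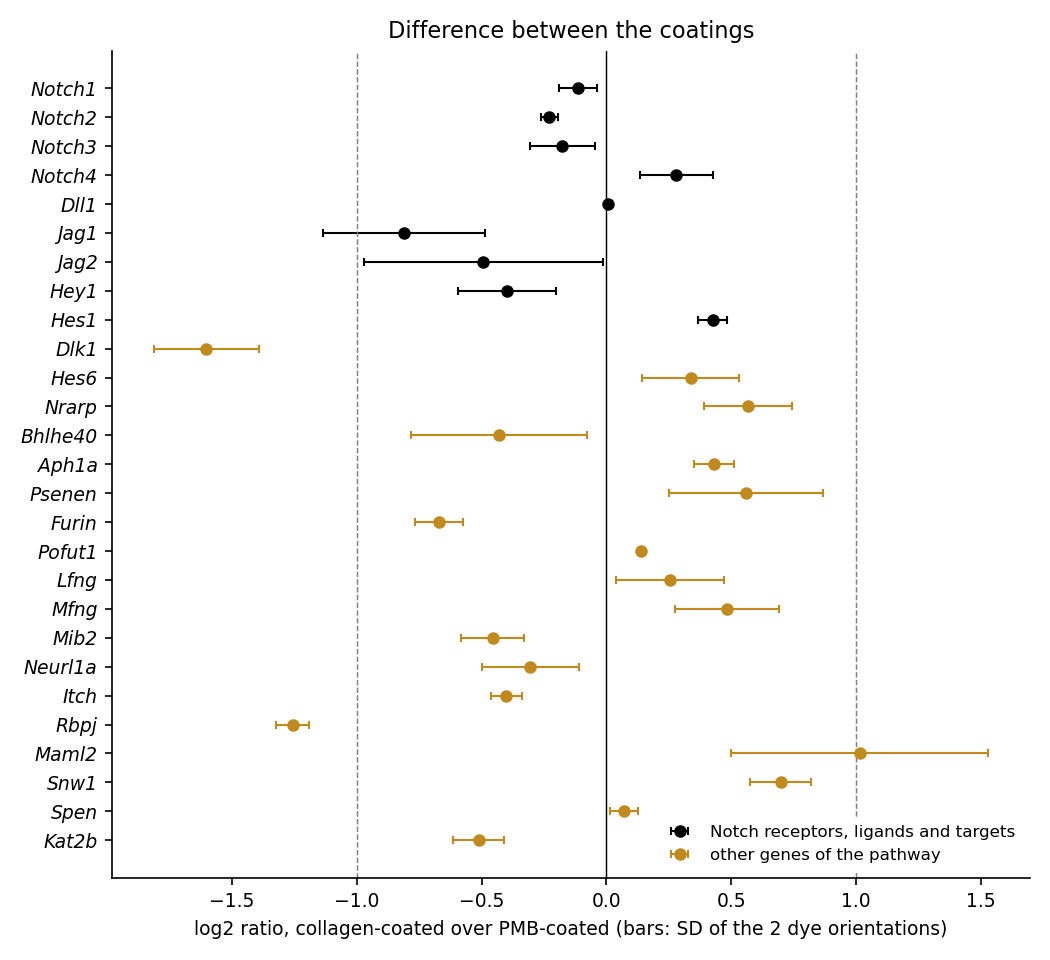
Log2 ratio of collagen-coated over PMB-coated for the 9 measured Notch genes (black) and the other pathway genes named in the Results (ochre). Points are the mean and bars the SD of the 2 dye orientations, with dashed lines at 2-fold. Dlk1 at -1.60, Rbpj at -1.26 and Maml2 at 1.01 lay past 2-fold, and Dll1 lay at 0.0072.

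Markers of blood endothelium, the cells in which Notch4, Dll4 and Nrarp are best known, were also above 0. With collagen 14 of 14 were above 0 on both arrays, against 39.9% of all genes, from 0.11 to 1.20 with a median of 0.77. Of the 14, 1 was at least 2-fold higher, against 2.21% of all genes, the tight junction gene Cldn5 at 1.20 ± 0.27. Cdh5 and Pecam1, defining endothelial adhesion genes, were at 0.94 ± 0.15 and 0.90 ± 0.0038. Beside them stood the collagen values of Notch4 at 0.78, Dll4 at 0.645 and Nrarp at 0.99. Other genes described above with a role in endothelium lay lower with collagen, with Hey1 at 0.20, Notch1 at -0.11 and Jag1 at -0.65. With PMB, Notch4 was at 0.50, Nrarp at 0.43 and Dll4 at -0.395 on replicate 1 alone. With PMB the endothelial median was 0.28, from -0.235 to 0.73, and 12 of 14 were above 0 on both arrays, against 38.8% of all genes. Arterial markers had medians of 0.56 with collagen and -0.096 with PMB over 7 genes, from -0.705 to 1.59 and from -0.40 to 0.87. Unc5b, a receptor of arterial and leading endothelial cells, was highest with collagen and lowest with PMB, at 1.59 ± 0.12 and -0.40 ± 0.47. Nrp1 was at -0.705 ± 0.13 and -0.28 ± 0.035, Gja4 at 0.56 ± 0.27 and 0.87 ± 0.49, and Sox17 at 0.78 ± 0.051 and 0.40 ± 0.033. Venous markers had medians of 0.57 and 0.16 over 4 genes.
Markers of pericytes and smooth muscle, the cells of Notch3, had medians of 0.22 with collagen and 0.24 with PMB over 9 genes, from -0.050 to 1.97 and from -0.52 to 0.87. Pdgfrb, a receptor of pericytes and fibroblasts, averaged 1.01 ± 0.14 with collagen and 0.70 ± 0.058 with PMB, and the contractile gene Myh11 averaged 0.17 ± 0.37 and 0.87 ± 0.29. Cnn1 and Acta2, of the same list, were higher with collagen only. Cnn1 averaged 1.97 ± 0.69 with collagen and -0.0415 ± 0.15 with PMB, and Acta2 averaged 0.78 ± 0.085 and -0.15 ± 0.28. T cell markers had medians of 1.75 and -0.41 over 5 genes, and pan-macrophage markers of -0.04 and -0.20 over 9. Fibroblast markers had medians of -0.016 and 0.35 over 7, and epidermis markers of 1.37 and 0.13 over 4 of 8 listed. With collagen the T cell markers ran from -0.24 to 2.14 and the pan-macrophage markers from -0.94 to 0.63. The fibroblast and epidermis markers ran from -0.95 to 0.39 and from -0.018 to 1.91. With PMB these ranges were, in the same order, -0.73 to 0.047, -0.56 to 0.36, 0.0605 to 0.70 and -0.22 to 0.81. The fibroblast median with collagen differed in sign between the arrays, at 0.25 on replicate 1 and -0.28 on replicate 2. The part of these cell types in the Notch values was not tested.

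**Figure D4:**
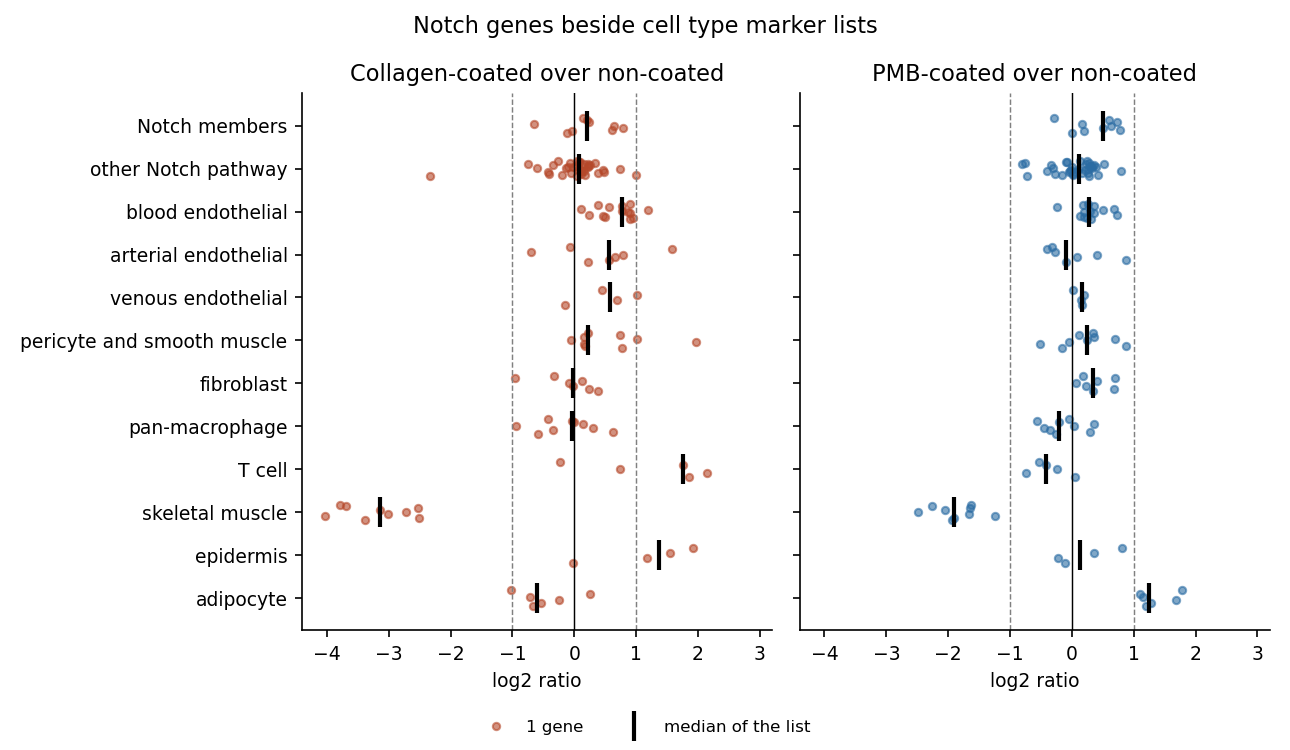
Log2 ratios of single genes (points) and list medians (black bars) for the 9 measured Notch genes, the 36 other pathway genes and 10 lists of cell type markers, collagen-coated over non-coated on the left and PMB-coated over non-coated on the right, with dashed lines at 2-fold. The Notch medians of 0.20 and 0.50 lay beside blood endothelial medians of 0.77 and 0.28.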

How the data were processed

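The authors read spot signals with GenePix, applied LOWESS to the dyes and deposited log2 ratios (Cy5 over Cy3) for all 4 arrays as 1 table. How repeated scans were merged, and why some spots are empty, is not stated in the methods or labels. Deposited values of swapped arrays had a correlation of -0.79 (collagen) and -0.66 (PMB). Replicate 2 was therefore turned in sign, in the direction that the dyes in the labels give, and both dye orientations were averaged into 1 replicate without renormalization.
The platform annotation paired 33651 of 43377 entries with 1 gene symbol and 56 with several, and 9670 were not named. Entries with values on all 4 arrays were averaged per gene. Some entries of a gene share an accession and may be repeats of 1 probe.
The genes and lists were chosen with earlier results of these data known. Named are all 10 Notch genes, other pathway genes past 2-fold, up to 3 more per role, and up to 4 markers per list. Adam10 is named besides, for its signs alone. Genes of like pattern were to be named only for a Notch gene past 2-fold, and none was. The calling was tested on simulated data in which genes had changes well past 2-fold or none. That test does not cover changes of the size seen for the Notch genes. Alternatives changed the summary over entries, the filter, the scaling, the arrays, the threshold and the trend with entry number. Software was Python 3.11.15 with pandas 2.3.3, numpy 2.4.6 and matplotlib 3.10.9, and limma 3.58.1 in R 4.3.3 for the scaling alternative.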

Additional observations from a re-analysis of the deposited data

Results flagged for a closer look

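The named genes were checked for both collagen arrays on one side of 0 and both PMB arrays on the other. This held for 1 of the 9 measured Notch genes and 4 of the other pathway genes named in the Results. The check did not cover all 36 measured pathway genes. The difference was not tested, because the 2 arrays of a coating hold the same extracts. Of all genes, 12.4% lay above 0 on the collagen arrays and below it on the PMB arrays in this way, and 11.4% the other way round. The pattern was thus common and does not set these genes apart. Hes1 had means of 0.13 ± 0.093 with collagen and -0.29 ± 0.15 with PMB, and Maml2 had means of 0.22 ± 0.21 and -0.80 ± 0.30. Adam10, a receptor cleavage gene outside the check, showed the same order. Its collagen mean was 0.10 ± 0.14, where replicate 1 stood at only 0.003, and its PMB mean was -0.28 ± 0.16. The opposite order was seen for Rbpj, with -0.74 ± 0.076 for collagen and 0.51 ± 0.14 for PMB, for Kat2b, with -0.27 ± 0.082 and 0.24 ± 0.019, and for Itch, with -0.11 ± 0.0049 and 0.29 ± 0.057.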

How the results depend on the processing

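No paired analysis was possible because both arrays of a coating hold 1 pair of extracts in exchanged dyes, so that no test was made. At 1.5-fold in place of 2-fold, 4 Notch genes were called with collagen, 4 with PMB and 1 between the coatings, and 5, 4 and 5 of the 36 other pathway genes, or 13.9%, 11.1% and 13.9%, against 14%, 8.81% and 19.6% of all genes. The 1.5-fold counts of Notch genes were also taken under the other alternatives after seeing the data, with the share of all genes in brackets. With collagen they ranged from 2 of 9 (14.1%) to 5 of 10 (14.5%), where a filter by coating brought in Dll4. With PMB they ranged from 1 of 9 (7.95%) to 5 of 9 (15.8%). Between the coatings they ranged from 0 of 9 (20%) to 2 of 9 (22.7%). With arrays scaled to one spread, 2 pathway genes were called with collagen and the median of the Notch genes between the coatings was -0.24. With the entry of smallest dye difference, 1 pathway gene was called with PMB. With the trend in entry number removed, an alternative chosen after seeing the data, the median between the coatings was -0.11. Shares of all genes for the 2-fold pathway calls under alternatives are not given here, so these counts have no background beside them. A call on 1 array also needs no second array of the same sign. With 1 array left out, pathway calls with collagen ranged from 1 (without replicate 2) to 3 (without replicate 1). With PMB they ranged from 0 to 1. Notch calls between the coatings ranged from 0 to 1, the 1 being Jag1 at -1.04 without replicate 1, from its entry with 4 values. The Notch medians then ranged from 0.08 to 0.20 (0.199) with collagen, from 0.298 to 0.701 with PMB and from -0.167 to -0.085 between the coatings. Of 207 values of single Notch genes under alternatives, 198 moved by under 1 SD and 10 had the other sign. Leaving out 1 array always moves a value by under 1 SD, because the SD is formed from the same 2 arrays. A gene with 1 entry with 4 values also keeps its value whatever the summary over entries. The count of 198 is therefore no measure of stability. The 10 were values of Notch1 and Notch2 against the non-coated scaffold, Jag1 with PMB and Dll1 between the coatings. The cause was not tested. With 1 extract per scaffold, no alternative measures the spread between mice, and without spot intensities the signal over background is unknown.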
